A study of Mus musculus with 18 samples.

Results

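Among 18 RNA sequencing libraries of mouse collecting duct cells, the 6 libraries numbered 7 to 9 fell onto 2 sides that crossed their treatment labels. Side A holds control 8, control 9 and dDAVP 7, and side B holds control 7, dDAVP 8 and dDAVP 9. The sides were chosen by the counts of all genes in these same libraries, so every difference between them is given as a description with no test. Nothing in the labels names the sides, and the labels are used as given.

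All libraries came from mpkCCD11 cells, an immortalised mouse line derived from the cortical collecting duct of the kidney and grown as a confluent monolayer on permeable supports. Control cells were kept in serum-free medium without hormone. The dDAVP cells were treated for 24 h in serum-free medium with 0.1 nM dDAVP (desmopressin), an agonist selective for the V2 vasopressin receptor. Both groups had first spent 24 h in serum-free medium. The labels do not say that replicates were separate cultures, so the p-values below measure only the spread between these libraries, which may be technical. One line in culture stands here for the principal cell, with no other kidney cells beside it.

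In the principal cell of the collecting duct, vasopressin binds the V2 receptor on the basolateral membrane, adenylyl cyclase makes cyclic AMP, and protein kinase A signalling follows. Over minutes this moves the water channel aquaporin-2 into the apical membrane, and over hours it raises transcription of the Aqp2 gene. In these cells Aqp2 mRNA is therefore the usual check that a dDAVP treatment took effect.

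The counts assigned to genes summed to between 41433506 (control 7) and 105932411 (dDAVP 7) per library, and 3 counts, taken as the limit of detection for a library, corresponded to 0.0283 to 0.0724 CPM, the count scaled to library size. CPM values below were normalised by the trimmed mean of M-values, TMM. Principal-cell markers were mixed: Krt18 lay between 3659 and 7109 CPM and Hsd11b2 between 5.10 and 9.30 CPM, whereas Aqp4 and Elf5 had no count in any of the 6 libraries and Aqp3 did not exceed 1.03 CPM. Of the defining markers of other cells, Pecam1 (endothelium) was at 0 in all 6, and Ptprc (leukocytes) was at most 0.013, Nphs1 (podocytes) at most 0.082 and Col1a1 (fibroblasts) at most 0.463 CPM. Other members of those lists were expressed. The 3 of 13 endothelial genes measured, Egfl7, Plvap and Eng, summed to 61.0 to 183.5 CPM on side A and 34.69 to 45.13 CPM on side B. For thick limb and distal tubule (3 of 16 measured) the sums were 130.55 to 200.56 CPM on side A and 66.31 to 113.28 CPM on side B, with Wnk4 separated. For podocytes (4 of 10 measured) they were 28.41 to 45.93 CPM on side A and 48.44 to 94.07 CPM on side B, so none of these 3 lists overlapped between the sides. This is not particular to them. The principal cell list summed to 16861.76 to 18513.9 CPM on side A and 7512.6 to 8420.3 CPM on side B. Its sums follow its most abundant members, and its median went the other way. The median log2 difference of side A minus side B over 19 members lay 0.344 below that of all genes. After the centring by GC content described below it lay 0.441 below. Of 10521 genes averaging 1 CPM or more, 2029 did not overlap with side A higher and 1794 with side B higher. The lists for leukocytes (4 of 18 measured, 24.82 to 77.55 CPM), fibroblasts (1 of 13, 1.97 to 9.25 CPM), proximal tubule (4 of 25, 36.91 to 112.35 CPM) and intercalated cells (9 of 19, 44.32 to 155.44 CPM) had sums that overlapped between the sides. The part of these genes in the results was not tested. No pair of libraries agreed within sampling noise. Detection did not follow the sides, since genes with any count numbered 12953, 12234 and 12739 on side A and 11379, 12793 and 11687 on side B.

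Of the 10521 genes that averaged 1 CPM or more over the 6 libraries, 803 (7.63%) were separated with side A higher and 350 (3.33%) with side B higher. A gene is called separated when the lowest log2 (CPM + 1) on one side lay at least 1 above the highest on the other. By the same measure the treatment labels separated 19 genes with dDAVP higher and 37 with control higher. Just inside the threshold stood Ube4a with a gap of 1.0008, and just outside it Wdr61 with 0.9994. The split of 69.6% side A higher depends on scaling, since with library totals in place of TMM factors all genes shift by a median of -0.885 on the log2 scale and only 10.7% of the separated genes are higher on side A. Differences of gene groups are therefore read against the median of all genes, which was 0.01 with TMM.

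The genes that separated the sides differed in base composition, and also in level and length. The median of their mean CPM was 139.75 for genes higher on side A, 13.48 for genes higher on side B and 18.33 for all genes. Median gene lengths were 2117.3, 3195.5 and 2698.2 bases, in the same order. Transcripts of the side A genes had a median of 58.83% G and C bases, those of side B genes 47.02%, and all genes 51.72% (GC content was known for 9320 genes, from the protein-coding transcript closest in length to that used by the authors). The quartiles did not meet: 57.01% to 60.39% for side A genes and 45.15% to 48.9% for side B genes. Across 9320 genes the difference of side means had a Pearson r of 0.611 with GC content (Spearman rho 0.637), whereas the difference of the label means had an r of -0.025. These correlations run over genes, which share their 6 libraries, and carry no p.

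The contrast in GC content is illustrated here by genes picked for it, so their difference follows from the choice. The opening 120 coding bases of 4 genes are shown, from the 15 widest gaps in each direction. The most GC-rich were taken for side A and the least GC-rich for side B, where the stretch lies in 1 exon. Capitals mark G and C, and sequences run 5′ to 3′ on the coding strand, read from GENCODE transcripts of build GRCm38. Prr7 (chr13:55472025-55472144, plus strand, exon 2) and Map1s (chr8:70906004-70906123, plus strand, exon 1) were higher on side A. Sbno1 (chr5:124414408-124414527, minus strand, exon 2) and Mfap3 (chr11:57528016-57528135, plus strand, exon 2) were higher on side B.
Prr7: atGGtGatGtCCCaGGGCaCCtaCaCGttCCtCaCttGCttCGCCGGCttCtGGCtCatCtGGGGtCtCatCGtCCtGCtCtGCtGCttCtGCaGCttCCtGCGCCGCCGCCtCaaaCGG
Map1s: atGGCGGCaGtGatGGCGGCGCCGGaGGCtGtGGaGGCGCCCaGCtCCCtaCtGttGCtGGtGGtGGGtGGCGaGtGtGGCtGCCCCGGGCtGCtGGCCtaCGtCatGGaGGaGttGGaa
Sbno1: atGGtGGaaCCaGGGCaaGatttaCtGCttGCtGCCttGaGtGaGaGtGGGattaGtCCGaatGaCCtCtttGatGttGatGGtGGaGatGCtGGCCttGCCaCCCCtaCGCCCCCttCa
Mfap3: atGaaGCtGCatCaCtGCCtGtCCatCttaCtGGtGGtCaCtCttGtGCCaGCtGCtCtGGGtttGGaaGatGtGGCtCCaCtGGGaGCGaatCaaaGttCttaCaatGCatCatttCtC
In these stretches 61.7% and 68.3% of bases were G or C in Prr7 and Map1s, against 53.3% and 49.2% in Sbno1 and Mfap3. Over the whole transcripts the shares were 69.0% and 64.1% against 44.1% and 45.5%.

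Prr7, which encodes a proline-rich membrane protein, stood at 22.2, 50.6 and 29.4 CPM in control 8, control 9 and dDAVP 7, and at 1.82, 2.04 and 1.76 CPM in control 7, dDAVP 8 and dDAVP 9. Map1s, a microtubule-associated protein gene, stood at 782, 2040 and 801 CPM on side A and at 106, 57.6 and 91.0 CPM on side B, in the same order. Both genes were high in the dDAVP library and the control libraries of side A and low in all 3 of side B, with differences of side means of 3.53 and 3.71 on the log2 scale. Sbno1, a homologue of the fly Notch-pathway gene strawberry notch, went the other way, at 3.64, 5.62 and 2.75 CPM on side A and 23.2, 39.8 and 23.7 CPM on side B (-2.58). Mfap3, a microfibril-associated protein gene, had 3.10, 2.83 and 2.21 CPM on side A and 19.3, 19.1 and 17.1 CPM on side B (-2.40).

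Ordered by GC content into 10 equal classes of 932 genes, the median difference of side A minus side B rose from -0.77 in the lowest class (31.2% to 43.2% GC) and -1.02 in the next to 2.05 in the highest (58.9% to 78.6%). In the highest class 354 genes were separated with side A higher (37.98%) and 1 with side B higher. In the third class, 45.8% to 48.0% GC, 8 were separated with side A higher and 96 with side B higher. Within the top class all 3 side A libraries lay above the gene means, by 0.954, 1.10 and 1.09 in control 8, control 9 and dDAVP 7, and all 3 side B libraries lay below, at -0.894, -1.23 and -0.973 in control 7, dDAVP 8 and dDAVP 9. At the lowest GC content the libraries did not follow the sides: control 9 lay at 0.34, above the mean, and dDAVP 9 at -0.416, below it. Gene length had a weaker relation to the side difference, with r of -0.212 over 10416 genes, and level (log2 mean CPM) had r of 0.378 over 10521.

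**Figure D1:**
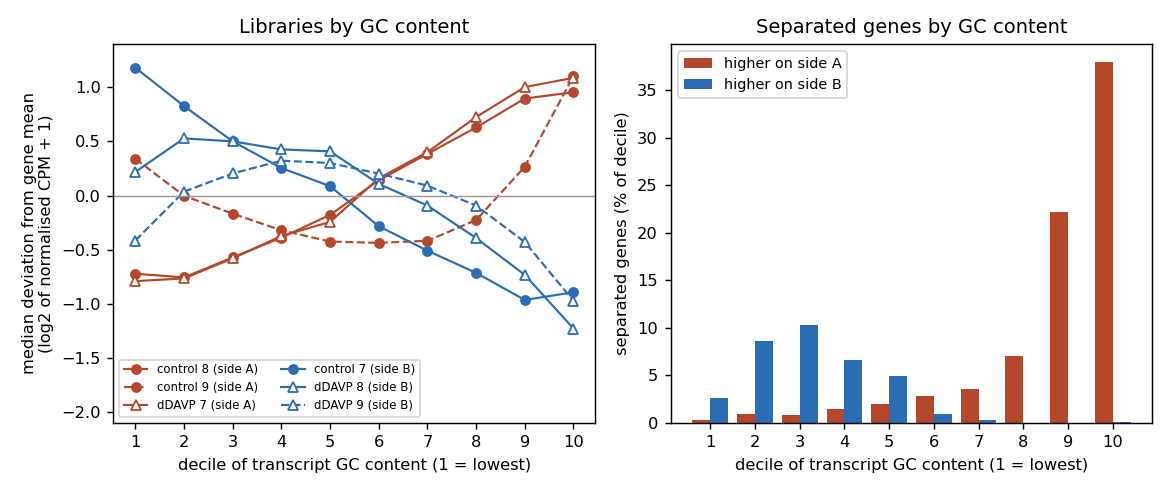
Left, the median deviation of each of the 6 libraries from the gene mean (log2 of normalised CPM + 1) in 10 classes of transcript GC content, dashed for control 9 and dDAVP 9, with open triangles for dDAVP and filled circles for control. Right, the percentage of genes in each class that were separated in either direction. The side A libraries end highest at high GC content and 37.98% of the top class is separated with side A higher.

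Weighted by counts, the mean GC content of the transcripts was 56.36%, 55.83% and 56.49% in control 8, control 9 and dDAVP 7, and 53.57%, 53.08% and 53.7% in control 7, dDAVP 8 and dDAVP 9. The sides did not overlap in it. All 6 values lay above those of libraries 1 to 3 (50.38% to 51.3%) and 4 to 6 (45.98% to 48.5%). Transcripts with at least 60% GC took 17.5%, 23.36% and 18.56% of counts on side A and 13.7%, 5.61% and 6.49% on side B.

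**Figure D2:**
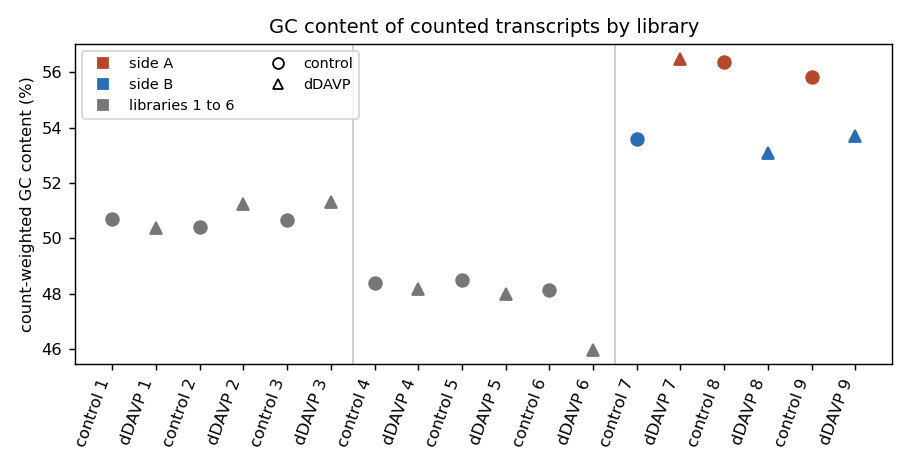
Count-weighted mean GC content of transcripts (percent, vertical axis) in each of the 18 libraries, circles for control and triangles for dDAVP, with side A in red, side B in blue and the other libraries in grey. The 3 libraries of side A lie between 55.83% and 56.49%, above the 3 of side B.

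When each library was centred within 20 classes of GC content, 229 of 9320 genes (2.46%) remained above the gap with side A higher and 99 (1.06%) with side B higher, of which 112 and 39 were also separated before centring. Correlation between libraries changed with it. Control 8 and dDAVP 7 were the most alike pair, with r of 0.95 over genes before and 0.938 after centring, although their labels differ. Control 8 and control 7 share a label and had r of 0.773 before and 0.879 after. The first principal component of the 6 libraries held 47.4% of the variance and placed all of side A opposite all of side B. After centring, the first component (43.3%) had loadings of 0.135, 0.668 and 0.237 in control 8, control 9 and dDAVP 7 and of -0.066, -0.46 and -0.514 in control 7, dDAVP 8 and dDAVP 9, so the signs still followed the sides but control 8 and control 7 lay close to 0. Before centring, the second held 29.0% and set control 9 and control 7 apart from the other 4 libraries. Those libraries also had the highest share of the ribosomal RNA precursor Rn45s, 3.039% and 2.133% of counts against 0.213% to 0.847% in the other 4, and the part of this share in the results was not tested.

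The widest gap belonged to P2rx2, an ATP-gated ion channel gene, at 16.3, 187 and 25.2 CPM in control 8, control 9 and dDAVP 7. It had no count in control 7 and 0.009 and 0.06 CPM in dDAVP 8 and dDAVP 9. Its transcript is only moderately GC-rich (54.9%), and after centring by GC content the difference was 5.07 against 5.43 before. Grin3b, a glutamate receptor subunit gene with 63.4% GC, had 37.5, 33.7 and 37.5 CPM on side A and 1.27, 1.97 and 0.414 CPM on side B. Its difference of 4.13 became 1.86 after centring, and it was then no longer separated. Chpf, a chondroitin polymerising factor, had 986, 1246 and 1191 CPM on side A and 131, 65.0 and 89.2 CPM on side B, and was separated under both treatments of the data with differences of 3.62 and 1.35.

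Among genes higher on side B the widest gap was that of Vwa5a, at 2.04, 3.38 and 1.59 CPM in control 8, control 9 and dDAVP 7 against 34.6, 26.1 and 19.2 CPM in control 7, dDAVP 8 and dDAVP 9. Smc1a, a subunit of the cohesin ring that holds sister chromatids together, had 7.20, 11.7 and 6.46 CPM on side A and 49.6, 62.4 and 57.1 CPM on side B. Micu2, a regulator of mitochondrial calcium uptake, had 3.61, 6.00 and 2.93 CPM against 44.4, 30.3 and 26.0 CPM. These 3 genes had 42.3%, 46.9% and 47.0% GC and stayed separated after centring, with differences of -2.22, -1.84 and -1.94. Hoxb9, a homeobox gene of posterior identity, lay near the middle of the GC range (52.8%) and was almost unmoved by centring: 16.5, 27.0 and 22.1 CPM on side A, 85.2, 108 and 109 CPM on side B, differences of -2.17 and -2.24. Wwtr1, which encodes the Hippo-pathway coactivator TAZ, was higher on side A although its transcript is GC-poor (43.9%), with 133, 319 and 184 CPM against 51.9, 41.6 and 29.3 CPM.

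Pathways were examined with 44 gene lists. Of 857 measured list genes, 65 were separated with side A higher and 29 with side B higher, close to the 7.63% and 3.33% of all genes. The counts of each list below are to be read beside these shares. The side A members had a median GC content of 57.8%, with 54 of 60 above the median of all genes, and the side B members 46.9%, with 27 of 28 below it. In 14 lists members were separated in both directions, and in 13 of these every side A member had a higher GC content than every side B member. The exception was the respiratory chain.

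The cholesterol pathway shows the division within a list. Hmgcs1, the cytosolic HMG-CoA synthase, was low on side A (9.01, 13.3 and 13.5 CPM in control 8, control 9 and dDAVP 7) and higher on side B (43.4, 38.1 and 33.6 CPM in control 7, dDAVP 8 and dDAVP 9). Mvk, the mevalonate kinase further along the pathway, had 173, 178 and 207 CPM on side A and 27.0, 43.0 and 23.5 CPM on side B. The GC content was 43.1% in Hmgcs1 and 59.6% in Mvk, and neither was separated after centring. Of 25 measured sterol genes, 1 was separated with side A higher (Mvk), 3 with side B higher, Hmgcs1 and Nsdhl among them, and 21 were not separated. The list median lay 1.08 below that of all genes, 0.95 below with library totals, and 0.39 below after centring. Fatty acid synthesis was divided alike, with Fasn (fatty acid synthase) and Srebf1 (its transcription factor) higher on side A and Elovl6 (an elongase) and Me1 (malic enzyme) higher on side B, out of 17.

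Cell cycle genes also went both ways. Top2a, the mitotic topoisomerase, had 13.4, 44.9 and 24.1 CPM on side A and 142, 201 and 101 CPM on side B. Plk1, a mitotic kinase gene, had 297, 374 and 285 CPM on side A and 77.7, 75.2 and 82.1 CPM on side B. Of 52 measured members, Ccnd1, Cdt1 and Plk1 were separated with side A higher and Top2a, Tpx2 and Cdc6 with side B higher. These counts are near the shares of all genes, 7.63% and 3.33%. Ccnd1, the G1 cyclin D1, kept its separation after centring, at 113, 150 and 143 CPM against 39.8, 38.7 and 32.6 CPM. Among 25 junction genes, Cldn3, Cldn7 and Tjp3 were higher on side A and F11r, Ctnnd1 and Esrp1 (a splicing regulator of epithelia) on side B, and none of the 6 was separated after centring.

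Some Nrf2 target and proteasome genes were higher on side B. Of all genes, 3.33% were separated with side B higher and 7.63% with side A higher. Nqo1, a quinone reductase and standard target of the stress factor Nrf2, had 3.88, 4.58 and 2.71 CPM on side A and 32.1, 23.5 and 24.9 CPM on side B, and remained separated after centring. Of 26 Nrf2 and glutathione genes, Nqo1, G6pdx, Me1 and Abcc1 were higher on side B and Ftl1, ferritin light chain, on side A. The list as a whole was not shifted to side B. Its median lay 0.08 below that of all genes, and 0.12 below after centring. Its summed level was 18397.37 to 20992.81 CPM on side A and 4828.81 to 8707.08 CPM on side B. In the proteasome list 3 of 31 subunits, Psmc1, Psmd1 and Psmd11, were separated with side B higher and none with side A higher. The proteasome median was 0.71 below that of all genes and 0.30 below after centring.

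Ribosomal protein genes and immediate early genes lay toward side A. Of 75 ribosomal protein genes, 10 were separated with side A higher and none with side B higher, against 7.63% and 3.33% of all genes. Rpl36 had 14095, 17419 and 10324 CPM on side A and 1583, 780 and 553 CPM on side B. None of the 66 with known GC content was separated after centring, while the list median stayed 0.53 above that of all genes (0.52 before). After centring by gene length instead, the median was -0.02 from that of all genes, and after centring by both it was 0.41. For the respiratory chain, 6 of 51 members were higher on side A and 2, Ndufa9 and Uqcrc2, on side B, near the same shares of all genes. Uqcrq, a small complex III subunit, remained separated after centring, with 1418, 3424 and 1673 CPM on side A and 321, 136 and 130 CPM on side B.

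Among 26 AP-1 and immediate early genes, Fosl1 and Ier3 were separated with side A higher, near the 7.63% of all genes. The list median lay 1.10 above that of all genes, and 0.99 above after centring. These genes were not even within sides. Junb, named here after its values were seen, had 404, 3255 and 877 CPM in control 8, control 9 and dDAVP 7, and 423, 30.7 and 53.1 CPM in control 7, dDAVP 8 and dDAVP 9, so control 7 overlapped side A. The cAMP and CREB target list lay 0.94 above all genes and -0.14 from them after centring, with Avpi1, Id1 and Nr4a2 separated of 23. Keratins and desmosome genes had the highest list median of the plot, 1.23 before and 0.05 after centring. Krt8, a keratin of simple epithelia, had 8507, 8312 and 6894 CPM on side A and 1822, 2024 and 1775 CPM on side B. In all, 18 lists lay at least 0.5 from the median of all genes before centring and 5 after it.

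**Figure D3:**
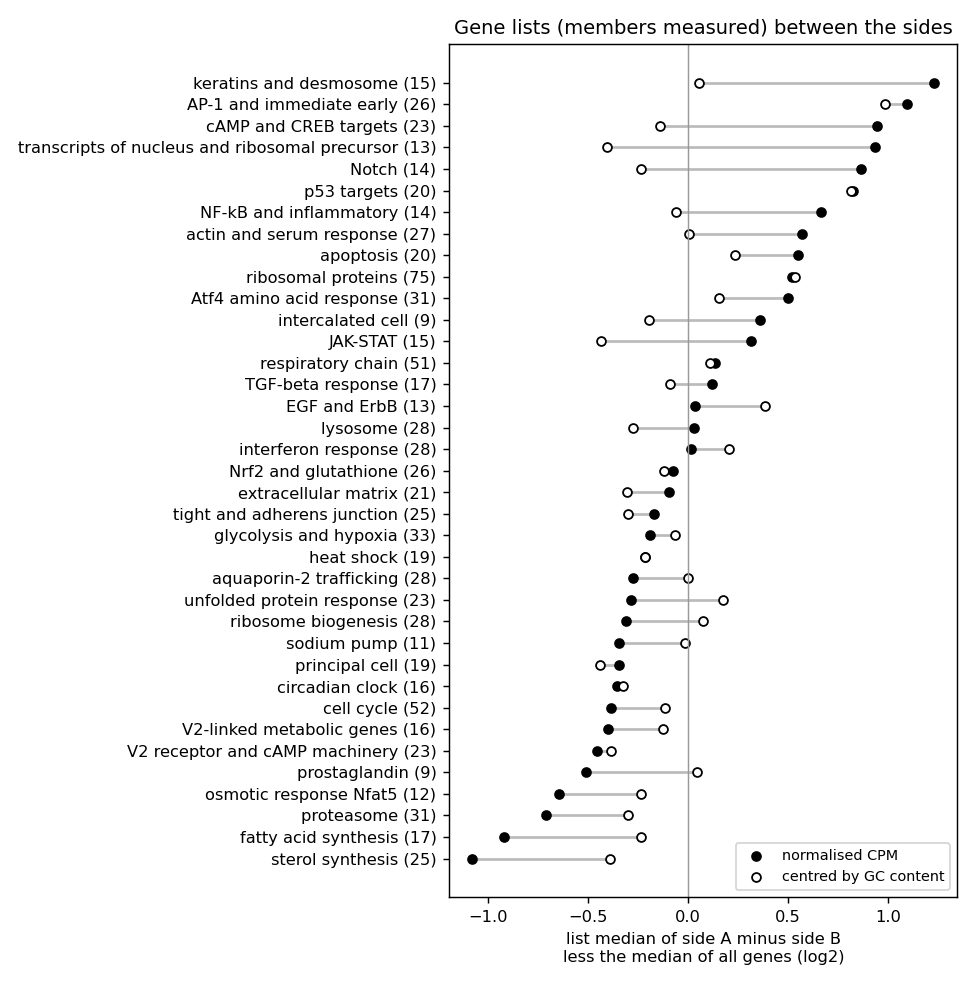
Median log2 difference of side A minus side B for each gene list with at least 9 measured members, less the median of all genes, on normalised CPM (filled) and after centring by GC content (open), with the number of measured members in brackets. Most lists move toward 0 with centring, keratins from 1.23 to 0.05. Several stay within 0.2 of their first position, among them immediate early genes, p53 targets, ribosomal proteins, principal cell genes, the V2 receptor list and the circadian clock.

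Vasopressin-responsive genes were taken from libraries 1 to 3, which had no part in defining the sides. With edgeR's quasi-likelihood test and Benjamini-Hochberg adjusted p below 0.05, 34 of 8991 genes (0.378%) were higher with dDAVP there and 7 (0.0779%) lower, and 9 of 10590 (0.085%) were higher over libraries 1 to 6. Of the 41 genes, 39 averaged 1 CPM or more in libraries 7 to 9, and 2 of them were separated between the sides, both with side A higher. The genes that rose with dDAVP were not shifted to either side: 15 of 32 had a positive difference of side A minus side B and 17 a negative one, with a median of -0.14.

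Avpi1, an arginine-vasopressin-induced gene, had 865, 1380 and 1177 CPM in control 8, control 9 and dDAVP 7 and 138, 60.8 and 99.4 CPM in control 7, dDAVP 8 and dDAVP 9. Both side A controls were thus above both side B dDAVP libraries. The difference of 3.56 became 2.27 after centring by GC content, without separation. Rnf186, a ubiquitin ligase gene of epithelia, had 25.9, 14.1 and 60.1 CPM on side A and 2.79, 3.03 and 3.29 CPM on side B, and was separated before and after centring (2.86 and 1.94). In libraries 1 to 3 these genes had log2 fold changes of 1.76 (SE 0.23) and 1.89 (SE 0.32) with dDAVP. They were also the only vasopressin-responsive genes among the 670 side A genes tested there, a share of 0.299% against 0.378% of all genes, and none of 344 side B genes was called. Without such calls, 532 of the 670 had a positive dDAVP difference in libraries 1 to 3 (median 0.26, all genes -0.01) and 117 of the 344 (median -0.15); of 188 tested genes separated after centring with side A higher, 98 had a positive one.

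On normalised CPM, before centring by GC content, Aqp2 itself followed neither the sides nor the labels fully. Its gene lies at chr15:99579055-99584547 on the plus strand (GRCm38), and its transcript is among the GC-rich ones (63.2%), as its opening 120 coding bases in exon 1 show, printed in the same way.
Aqp2: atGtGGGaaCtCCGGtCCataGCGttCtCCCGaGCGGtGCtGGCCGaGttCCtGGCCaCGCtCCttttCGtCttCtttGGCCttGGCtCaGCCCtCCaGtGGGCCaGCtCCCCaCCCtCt
The level was 66.0 CPM in control 8, 488 in control 9 and 5008 in dDAVP 7, and 21.0 CPM in control 7, 339 in dDAVP 8 and 333 in dDAVP 9. The highest library and the lowest carry the labels dDAVP and control, but control 9 lay above dDAVP 8 and dDAVP 9, so the labelled groups overlapped. The sides overlapped as well, since control 8 lay below both dDAVP libraries of side B. Within each side every dDAVP library was above every control. The mean of the dDAVP libraries less that of the controls was 4.79 on side A and 3.94 on side B. After centring by GC content these differences were 4.88 and 4.52. Both overlaps were read before centring. After centring every dDAVP library lay above every control in Aqp2, so the labelled groups no longer overlapped. The sides still did, with a gap of -4.745, negative where they overlap. Genes of the top GC class (58.9% to 78.6%) lay 1.10 above their means in control 9 and at -1.23 and -0.973 in dDAVP 8 and dDAVP 9. With centring the Aqp2 difference of side A minus side B went from 2.01 to -0.27.

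By label, Aqp2 had a log2 fold change of 3.31 (SE 1.38, n = 3 libraries per group) with dDAVP in edgeR's test, with an unadjusted p of 0.03213 and an adjusted p of 0.938. The exact two-sided permutation test of the difference of 3.21 in mean log2 (CPM + 1) gave p = 0.3, where 3 against 3 libraries cannot give less than 0.1. That test used values before centring by GC content, in which the labelled groups overlapped. With offsets for GC content the fold change was 4.06 (SE 0.81), with an unadjusted p of 0.0006514 and an adjusted p of 0.647 in edgeR's test. In libraries 1 to 3 it was 6.32 (SE 0.36). Without control 9 the difference was 4.43 and without dDAVP 7 it was 1.91, so each of these libraries moved the value.

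Over the 6 libraries the genes whose log2 levels most resembled those of Aqp2 were Ncoa5 (r = 0.986), Ctdsp1 (0.971), Whsc1 (0.963), Vsig10l (0.959) and Epha2 (0.954), given as a description without p. The receptor gene Avpr2 had 115, 39.1 and 109 CPM on side A and 45.9, 48.6 and 71.1 CPM on side B, and the sides overlapped. Its difference was 0.54 with TMM and -0.53 with library totals, under which all genes shift by a median of -0.885. Scnn1a, the alpha subunit of the epithelial sodium channel, had 0.50 and -0.58, so under these scalings both genes stayed above the median of all genes. After centring by GC content Avpr2 had 0.18, but Scnn1a had -0.42. Every side B library of Scnn1a then lay above every side A library, with a gap of 0.228. Scnn1b, the beta subunit, ranged from 0.017 CPM in dDAVP 9 to 26.2 in control 9, with no order by side or label. Of 23 measured genes of V2 receptor and cyclic AMP signalling, Rapgef3 (the cyclic AMP sensor Epac1) and Pkig (an inhibitor of protein kinase A) were separated with side A higher and none with side B higher, near the 7.63% and 3.33% of all genes. After centring by GC content 1 of 22 was separated in each direction, and the list median lay 0.46 below that of all genes before and 0.39 below after centring.

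The labels were then compared inside each side, a count made after the values had been seen. Of 32 genes that rose with dDAVP in libraries 1 to 3, 12 (37.5%) had every dDAVP library above every control on both sides, against 1754 of all 10521 genes (16.7%). Among them were Adh1, Aqp2, Arhgef3, B3gnt7, Bcat1, C3, Car15, Cited1, Fcgbp, Rnf186 and Tbc1d16. The reverse order on both sides was seen in 3 (9.38%), Car12, Crem and Spink8, against 1684 of all genes (16%). Of 7 genes that fell with dDAVP, 2 (28.6%), Atf3 and 1700011H14Rik, had the dDAVP libraries below the controls on both sides and none had them above. Side B holds both dDAVP 8 and dDAVP 9 and side A only dDAVP 7, so side and label are not balanced.

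Cited1, a transcriptional coactivator gene, was at 8.70 CPM in dDAVP 7 against 1.23 and 0 in control 8 and control 9, and at 6.93 and 3.90 CPM in dDAVP 8 and dDAVP 9 against 0 in control 7. B3gnt7, a glycosyltransferase gene, was at 66.5 CPM in dDAVP 7 against 14.9 and 12.1, and at 44.0 and 50.5 CPM in dDAVP 8 and dDAVP 9 against 0.666 in control 7. Both genes therefore had the 3 dDAVP libraries above the 3 controls whatever the side. C3, complement component 3, had the same order by a small margin: dDAVP 7 with 12.6 CPM lay just above control 8 (11.8) and control 7 (11.7), while dDAVP 8 and dDAVP 9 had 57.5 and 40.8 CPM and control 9 had 2.86. Bcat1, a branched-chain aminotransferase gene, had 11.6, 5.32 and 13.2 CPM on side A and 13.3, 55.4 and 20.2 CPM on side B, so dDAVP 7 lay marginally below control 7. Atf3, a stress-induced transcription factor gene that fell with dDAVP in libraries 1 to 3, had 13.3 CPM in dDAVP 7 against 28.5 and 28.1 in the side A controls, and 29.2 and 8.88 CPM in dDAVP 8 and dDAVP 9 against 42.1 in control 7.

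Some responsive genes had the label order on 1 side only. Cited4 had 67.6 CPM in dDAVP 7 against 23.9 and 34.5 in the side A controls, but 3.84 and 7.14 CPM in dDAVP 8 and dDAVP 9 against 128 in control 7. Fras1, which fell with dDAVP in libraries 1 to 3, had 65.4 CPM in dDAVP 7 against 5.31 and 4.99 in the side A controls, and on side B 10.2 and 12.1 CPM with dDAVP against 14.9 in control 7. Cited4, Fras1 and Atf3 were named after their values were seen.

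**Figure D4:**
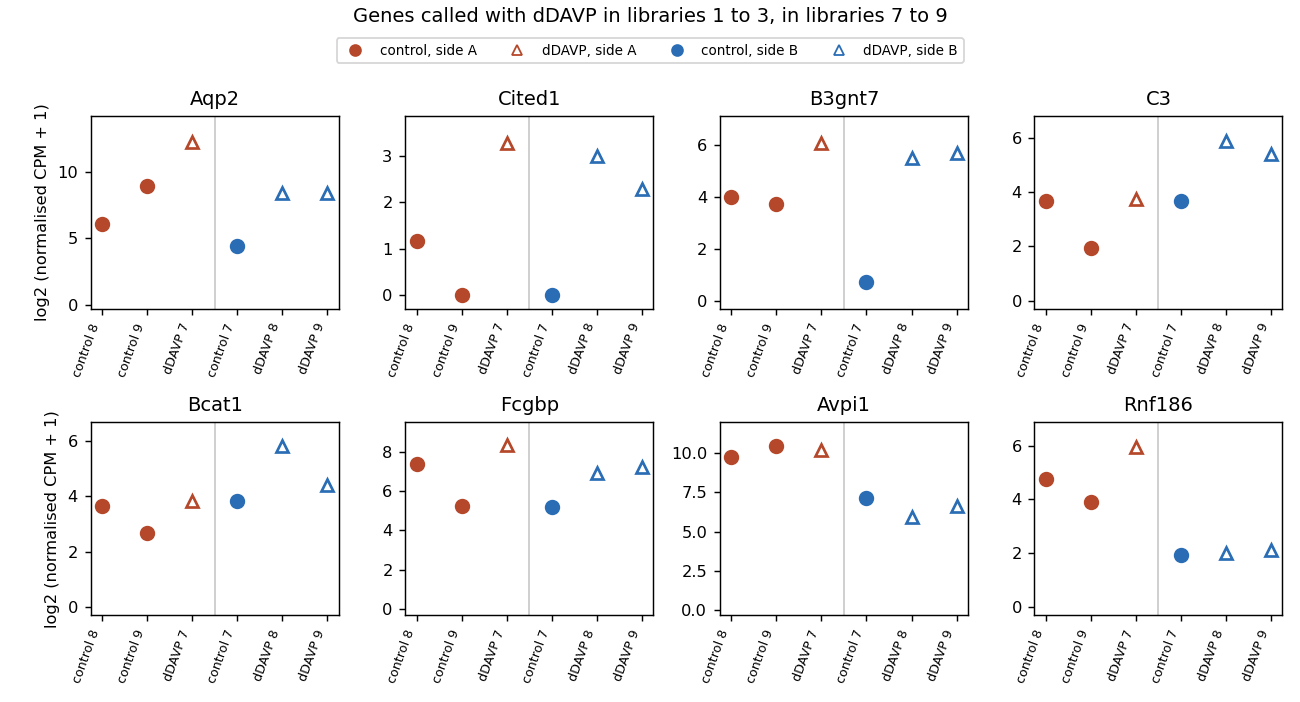
Log2 (normalised CPM + 1) of 8 genes called with dDAVP in libraries 1 to 3, in each of the 6 libraries on a linear axis, with side A in red to the left of the line, side B in blue to the right, filled circles for control and open triangles for dDAVP. Aqp2, Cited1, B3gnt7, C3, Bcat1 and Fcgbp have the dDAVP libraries above the controls within each side, whereas all 3 side A libraries lie above side B in Avpi1.

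**Figure D5:**
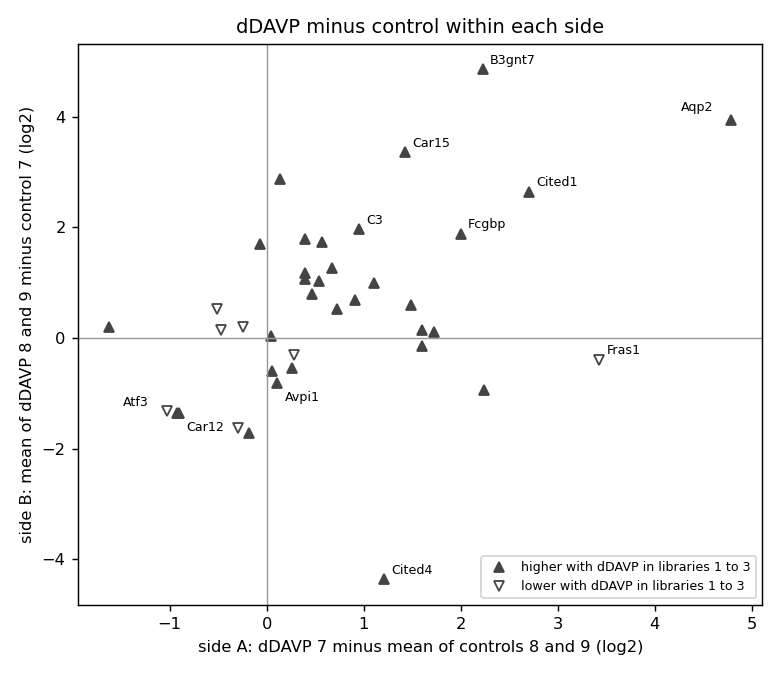
For each of the 39 vasopressin-responsive genes measured in libraries 7 to 9, the log2 difference of dDAVP minus control on side A (horizontal) and on side B (vertical), with filled triangles for genes higher and open triangles for genes lower with dDAVP in libraries 1 to 3. Of the 32 filled triangles 21 (65.6%) lie in the area where both differences are above 0, against 33.5% of all genes, or 18 (56.2%) against 28.9% after GC centring, and Aqp2 stands at 4.79 and 3.94.

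Tested by label without regard to the sides, no gene of 11367 (0%) passed an adjusted p of 0.05 in libraries 7 to 9 with edgeR's quasi-likelihood test, with 590 at an unadjusted p below 0.05. DESeq2 called 93 genes, 9 of them higher with dDAVP, and without dDAVP 7 edgeR called 98. Of 32 responsive genes that rose in libraries 1 to 3, 24 had a positive fold change in libraries 7 to 9 (median 0.56, with 48.9% of all genes positive), and of the 7 that fell, 2 did (median -0.29). The dDAVP effect differed between libraries 7 to 9 and 1 to 3 in none of 11204 genes (0%) by edgeR's interaction term, with 622 at an unadjusted p below 0.05 and 25 called by DESeq2. Without dDAVP 7 edgeR called 183. All 34 genes that rose in libraries 1 to 3 had a lower fold change in libraries 7 to 9, and the 7 that fell a higher one, but they were chosen for their change in libraries 1 to 3.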

How the data were processed

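RNA from 18 libraries of mpkCCD11 cells, 9 control and 9 dDAVP, was grouped by the libraries' labels. Per the labels' protocols, 20 ng of total RNA entered reverse transcription and single-end reads of 50 bases were sequenced; the protocols name both a low-input library kit and a protocol for single cells, without saying which library had which. The submitters' processing notes name STAR 2.4.0.1, SAMtools, HTSeq and the mm10 build. The authors deposited raw counts per gene (24111 symbols) and FPKM values (24076 symbols); 27 symbols in the count table had turned into dates. All values here come from the deposited counts, except that the deposited FPKM gave an alternative and, set against the counts, the gene length the authors used.

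The members and the gene lists were chosen with earlier results of these data known. Counts were scaled with TMM factors and given as CPM, with 1 CPM added before log2. A gene was separated when the sides were at least 1 apart on that scale, among genes averaging 1 CPM or more. GC content came from the protein-coding GENCODE transcript nearest to the authors' length, within 1.25-fold, for 88.58% of these genes, and 98.1% of symbols matched 1 GENCODE gene. GC centring subtracted, in each library, the median deviation of 20 equal classes. Labelled comparisons used edgeR 4.0.16 (quasi-likelihood, TMM, filterByExpr, 2-sided, Benjamini-Hochberg adjusted p below 0.05) in R 4.3.3. DESeq2 1.42.0, library totals, other filters and gaps, FPKM, a replicate block and leaving out each library were alternatives, and the GC corrections, the length correction and the counts within sides were added after the data were seen. Named genes were fixed collecting duct genes, the 15 widest gaps per direction at an average of 5 CPM or more, the responsive genes separated or with the 15 smallest p, up to 4 separated members per list and direction, the widest gaps after centring, and the 5 genes most like Aqp2. The procedures were tested on simulated data. Counting depth limits values near the floor of 3 counts, and that floor covers counting error only. Some named members of these sets are not reported here.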

Additional observations from a re-analysis of the deposited data

Results flagged for a closer look

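In dDAVP 7 the share of counts from transcripts with at least 60% GC was 18.56%, far from the other 8 dDAVP libraries, which lay between 0.21% and 6.49%. In the same library the share of Rn45s was 0.847%, also far from the other 8. Each was marked by the gap between the highest library and its neighbour relative to the range of the 9 dDAVP libraries. These come from sets that differed in the GC-rich share. It was 1.49% to 2.13% in dDAVP 1 to 3, 0.21% to 1.88% in dDAVP 4 to 6 and 5.61% to 18.56% in dDAVP 7 to 9. In addition, dDAVP 7 is the only dDAVP library of side A, which was chosen on these counts, so no chance rate is given for the marks. Among the controls, control 8 and control 9 had shares of 17.5% and 23.36% of GC-rich counts, and control 7 of side B had 13.7%. The Rn45s shares of control 8, control 9 and control 7 were 0.784%, 3.039% and 2.133%.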

How the results depend on the processing

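Genes separated with side A higher (803) and side B higher (350) numbered 188 and 1576 with library totals, 174 and 1160 with the deposited FPKM, 2029 and 1794 at any gap above 0, and 189 and 7 at a gap of 2. They numbered 229 and 99 after GC centring, 223 and 99 with length also centred, and 219 and 115 with library totals and GC centring. Leaving out 1 library gave 910 to 1334 and 412 to 863, with over 1.5 times the count without control 9 (1334 and 863) and control 7 (1250 and 648) and, on side B, without dDAVP 9 (666); fewer libraries make a gap easier to reach. Of responsive genes with side A higher (2), 1 remained with library totals, FPKM, a gap of 2 and each GC centring, 6 at any gap, and 2 to 4 with a library left out (4 without control 9 or dDAVP 8). With side B higher (0) there was 1 with an offset of 0.25 CPM or length centring, 2 with library totals, 6 at any gap, and 0 to 4 with a library left out (4 without control 7, 2 without dDAVP 9, 1 without control 8 or dDAVP 7). Lists at least 0.5 from all genes (18) numbered 5 after GC centring and 6 with length. Fallen genes in label order within sides (2) numbered 1 at an average of 5 CPM or more. No direction was reversed among called values.

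For the labels, libraries 7 to 9 (0 called) gave 93 with DESeq2, 7 with library totals, 30 without a filter and 0 to 98 with a library left out, 98 without dDAVP 7 and 6 without control 7. Libraries 1 to 3 (41) gave 123 with DESeq2, 207 without a filter, 81 with GC offsets and 13 to 774 with a library left out: 774 without dDAVP 1, 24 without dDAVP 2, and 14, 13 and 15 without control 1, 2 and 3. Libraries 1 to 6 (9) gave 65, 4 with library totals, 16 with GC offsets and 4 to 12; the interaction (0) gave 25 and 0 to 183, 183 without dDAVP 7. With a replicate block the counts were 3 (Vgf, Nupr1l and Hist1h2ae) in libraries 7 to 9, 101 in 1 to 3 (190 with GC offsets and the replicate block) and 2 in 1 to 6. Same-numbered libraries of 7 to 9 deviated oppositely (r -0.453, -0.327 and -0.168). Each number has its control and its dDAVP library on opposite sides, and the sides were chosen on these counts. The r values therefore cannot show whether the numbers pair the libraries. The causes of the changes in the counts of called genes were not tested.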
